A study of Mus musculus with 2 samples.

Results

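Interferon-stimulated genes are the genes whose transcription rises when a cell responds to an interferon. The account below follows a list of 37 of them, set by gene symbol, of which 36 were among the 32285 genes of the count tables. Mx1 was not analysed here. Levels were read per deposited cluster and library, with endothelium set against Kupffer cells, the resident macrophages of the liver, and against lymphocytes. The cells came from livers of mice at postnatal day 15 and were sorted by fluorescence-activated cell sorting before droplet capture. The control library, marked WT in its labels, and the c-Maf KO library, marked KO, each pooled 1 male and 1 female, and each group had 1 library. The titles speak of c-Maf KO endothelial cell mice, and the sources used here give no driver, allele or strain. The study asks, by its title, whether liver endothelium needs the transcription factor c-Maf to form mature sinusoids.

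Type I interferons bind a receptor of the chains Ifnar1 and Ifnar2, and interferon gamma one of Ifngr1 and Ifngr2. Janus kinases at these receptors activate the STAT factors. A complex that holds Stat2 and Irf9 binds interferon-stimulated response elements, so that 1 signal raises many genes together. Their products sense foreign nucleic acid, block viral RNA or protein, or attack the membranes around intracellular microbes. Liver sinusoidal endothelium and Kupffer cells face blood from the gut, which carries microbial products, and both cell types are known to express such genes.

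Endothelial cells held 16238502 unique molecular identifiers (UMIs, counted molecules) in 2948 control cells and 22621086 in 2991 c-Maf KO cells. Kupffer cells numbered 766 and 193, B lineage cells 1799 and 2682, and T and NK cells 1139 and 827. The 7 endothelial markers summed to 7188 and 5417 CPM (UMIs per 1000000 UMIs of the cell type) in endothelial cells, with none at 0. The 8 Kupffer markers summed to 21066 and 16583 CPM in Kupffer cells. In endothelial cells those Kupffer markers summed to 283 and 26.5 CPM, with 0 of 8 at 0. The endothelium fell into different clusters: S and S2 held 1320 and 1459 of the control cells, and 223 and 113 of the c-Maf KO cells. KOS_1, the largest c-Maf KO cluster, held 1356, KOS_2 518 and KOS_3 238. Of cells whose mouse could be told by Xist or Y-linked UMIs, 47.7% were female-type in control and 83.8% in c-Maf KO endothelium. No mouse could be told for 1330 control and 971 c-Maf KO endothelial cells, nor for 524 and 117 Kupffer cells. The annotated cells of the libraries shared 21 barcodes. Since each group was 1 library, no test could be run, intervals are 95% counting intervals, and no difference between genotypes has a replicate check.

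In endothelial cells 16 of 36 interferon-stimulated genes were called lower in c-Maf KO mice, 2 higher and 18 neither. Calls rest on size alone: the libraries had to be at least 1.5-fold apart with equality outside the interval, and a gene needed 50 UMIs or more in sum. All 36 members reached that minimum. Over all 11927 genes that did, 15.5% were lower and 14.2% higher. Their median log2 ratio (c-Maf KO to control) was -0.51, against -0.08 over all genes measured. With ribosomal protein, mitochondrial, hemoglobin and immunoglobulin genes left out of the totals, 10 members were lower and 2 higher, with medians of -0.34 for members and 0.09 for all genes. The members together took 7967 CPM in control and 4890 CPM in c-Maf KO endothelium. Ifitm2, Ifitm3 and Bst2 held 67.0% and 64.3% of these sums. The other members summed to 2628 and 1745 CPM. Without endothelial cells in which markers of another cell type held over 0.1% of UMIs, again 16 were lower and 2 higher. Shares of all genes called were not computed for the totals without abundant gene classes or for this filter.

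Among the 5 nucleic acid sensors, 1 was lower and 4 were neither, a count near the 15.5% of all genes called lower. Ifi204, a DNA-binding protein of the PYHIN family, stood at 156 CPM (150 to 162) in control and 41.8 CPM (39.2 to 44.5) in c-Maf KO endothelium. Its log2 ratio was -1.90 (-2.01 to -1.79). In cells thinned to 1128 UMIs each, 14.6% of control cells (13.3% to 16%, exact Clopper-Pearson) and 4.17% of c-Maf KO cells (3.45% to 4.98%) held an Ifi204 UMI. B lineage cells, which gave 0.336% and 0.189%, served as background, and before thinning the endothelial shares were 43.7% and 20.7%. Median depths were 4985.5 and 7320 UMIs in endothelial and 3698 and 3051.5 in B lineage cells. Its relative Ifi203 was at 304 and 214 CPM (log2 ratio -0.51, -0.56 to -0.45), short of the size rule. The RNA sensors Ifih1 and Ddx58 (MDA5 and RIG-I) had log2 ratios of -0.15 and -0.56. Zbp1, a sensor of left-handed nucleic acid, gave only 25 and 47 UMIs.

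Of the 4 transcription factors of the response, only Stat2 passed, a count near the 15.5% of all genes called lower. Stat2 stood at 52.6 and 32.7 CPM (log2 ratio -0.68, -0.83 to -0.54). Irf9, its partner in the complex that binds response elements, was at 68.2 and 53.2 CPM. Irf1 was at 76.2 and 67.7 CPM and Irf7, which amplifies interferon production, at 44.1 and 36.6 CPM. The log2 ratios of these 3 lay between -0.36 and -0.17.

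The antiviral effectors split. Of 17 measured, 6 were lower, beside 15.5% of all genes, 2 higher, beside 14.2%, and 9 neither. The IFIT proteins bind foreign RNA and stop its translation, and all 3 listed were lower. Ifit3 stood at 68.5 and 26.0 CPM (log2 ratio -1.40, -1.54 to -1.25). Ifit1 was at 39.1 and 21.0 CPM (-0.89) and Ifit2 at 78.9 and 43.1 CPM (-0.87). Trim30a, a tripartite motif protein that restrains Toll-like receptor signaling, was at 124 and 51.8 CPM (-1.26, -1.36 to -1.15). Parp14, an ADP-ribosyltransferase, was at 160 and 95.8 CPM (-0.74). Bst2, the tetherin that holds budding virus at the cell surface, was at 795 and 490.4 CPM (-0.70). These 6 were lower, while other classical members of the group differed little. Isg15, a ubiquitin-like protein, was at 95.2 CPM (90.5 to 100) and 93.9 CPM (89.9 to 97.9), with a log2 ratio of -0.02 (-0.12 to 0.07). Rsad2, the antiviral enzyme viperin, was at 106 and 88.1 CPM (-0.27, -0.36 to -0.18). Rtp4 was at 149 and 105 CPM (-0.51), and Xaf1, an antagonist of an apoptosis inhibitor, at 86.2 and 67.0 CPM (-0.36). Oasl2, Usp18, Ifi44, Ifi35 and Oas1a were the other members called neither, with log2 ratios from -0.36 to 0.29. The higher members were Isg20, an exonuclease that degrades RNA, at 9.30 and 19.8 CPM (1.09, 0.82 to 1.37), and Ifi27l2a at 14.8 and 25.2 CPM (0.77, 0.55 to 1.0). Isg20 lost its call in thinned cells and in the male-type cells described below, and Ifi27l2a in the female-type cells.

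The IFITM proteins sit in membranes and hinder the fusion of enveloped virus. Ifitm2 stood at 2814 CPM (2788 to 2840) in control and 1210.4 CPM (1196 to 1225) in c-Maf KO endothelium, a log2 ratio of -1.22 (-1.24 to -1.20). Ifitm3 stood at 1731 and 1443 CPM (-0.26, -0.28 to -0.24). Ifitm1 was low in both, with 203 and 36 UMIs, or 12.5 and 1.59 CPM (-2.96, -3.53 to -2.46). Ifitm3 thus stayed short of the size rule that the other 2 passed, beside 15.5% of all genes called lower.

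The interferon-inducible GTPases gather on membranes around intracellular microbes, and interferon gamma is their best known inducer. Of the 7 measured, 6 were lower, beside 15.5% of all genes, and 1 was neither. Iigp1 stood at 297 CPM (289 to 306) and 125 CPM (120 to 130), a log2 ratio of -1.25 (-1.32 to -1.18). Igtp was at 19.3 and 10.4 CPM (-0.89), Gbp2 at 34.8 and 20.4 CPM (-0.77) and Ifi47 at 35.7 and 21.7 CPM (-0.72). Irgm1, at 95.9 and 63.3 CPM (-0.60), and Gbp7, at 123 and 82.0 CPM (-0.59), passed closely. Gbp3 was at 36.2 and 34.4 CPM (-0.07). Ifit, Ifi200, Gbp and Irgm genes have close relatives, and the sources used here do not say how shared reads were assigned, so values of single relatives are uncertain.

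Ifi204, Ifit3, Ifitm1, Ifitm2, Iigp1 and Trim30a kept the lower call in all 16 alternatives computed. Ifi47, Stat2, Parp14, Bst2, Irgm1 and Gbp7 lost it with totals without the abundant gene classes. In female-type cells alone Ifi47, Ifit1, Ifit2, Igtp, Stat2, Gbp2, Gbp7, Parp14 and Bst2 lost it. Under a 2-fold size rule the same members and Irgm1 lost it. Gbp7 kept the call in 8 and Irgm1 in 9 of the 16 alternatives. Leaving out KOS_2, or taking the sinusoidal clusters alone, gave 14 lower and 2 higher.

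Promoters of members that were lower and of members that differed little are shown together, since the core of an interferon-stimulated response element occurred in both. Each line gives the 250 bases before the annotated start from RefSeq (GRCm38.p6), 5′ to 3′ on the gene's strand, with the core in capitals, that is GAAA, any 2 bases and GAAA again on either strand. Ifit3 lies at chr19:34583279-34583528 on the plus strand. Trim30a, the first of 2 windows listed, lies at chr7:104465194-104465443, Ifitm2 at chr7:140955962-140956211, Isg15 at chr4:156200819-156201068 and Rsad2 at chr12:26456453-26456702, all on the minus strand.
Ifit3: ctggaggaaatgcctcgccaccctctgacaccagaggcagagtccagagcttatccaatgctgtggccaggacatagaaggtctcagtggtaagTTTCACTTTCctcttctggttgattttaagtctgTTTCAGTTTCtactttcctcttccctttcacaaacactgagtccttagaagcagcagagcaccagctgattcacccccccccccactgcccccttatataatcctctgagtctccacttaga
Trim30a: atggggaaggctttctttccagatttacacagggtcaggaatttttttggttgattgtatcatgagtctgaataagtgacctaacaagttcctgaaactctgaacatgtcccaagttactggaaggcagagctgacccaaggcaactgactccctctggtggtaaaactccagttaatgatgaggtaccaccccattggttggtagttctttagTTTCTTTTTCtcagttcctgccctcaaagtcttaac
Ifitm2: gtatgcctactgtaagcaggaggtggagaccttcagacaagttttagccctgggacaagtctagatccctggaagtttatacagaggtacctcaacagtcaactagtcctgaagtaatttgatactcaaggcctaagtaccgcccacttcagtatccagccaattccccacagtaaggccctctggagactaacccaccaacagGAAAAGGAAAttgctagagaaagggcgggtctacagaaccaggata
Isg15: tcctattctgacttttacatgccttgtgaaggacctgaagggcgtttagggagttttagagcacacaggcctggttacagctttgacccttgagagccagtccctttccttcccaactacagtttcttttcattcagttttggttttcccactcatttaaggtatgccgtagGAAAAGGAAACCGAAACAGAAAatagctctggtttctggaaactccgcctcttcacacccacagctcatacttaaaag
Rsad2: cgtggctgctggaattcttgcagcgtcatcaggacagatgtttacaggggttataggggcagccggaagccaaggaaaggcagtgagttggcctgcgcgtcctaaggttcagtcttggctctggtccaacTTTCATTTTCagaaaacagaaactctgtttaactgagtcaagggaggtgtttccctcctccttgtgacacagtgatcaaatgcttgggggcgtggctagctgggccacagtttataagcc
Ifit3 held 2 matches, beginning 156 and 122 bases before the start. Trim30a held 1 match at 36 bases and Ifitm2 1 at 46 bases. Isg15 held 3 overlapping matches at 78, 72 and 66 bases, and Rsad2 1 at 120 bases. RefSeq windows were found for 29 members, 37 windows in all, and 15 of these (40.5%) held the core in the 250 bases, beside 2.98% of 32851 windows of all genes. By gene, 10 of 13 members called lower in endothelium and 5 of 15 called neither held it, as did 0 of 1 called higher. The gamma-activated site TTCNNNGAA, which reads the same on both strands, was in 18.9% of the members' windows and in 7.02% of all. A match is a run of letters, and binding was not measured.

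The lower levels were not alike in the 4 pooled mice. Cells with an Xist UMI and no Y-linked UMI (female-type) and those with the reverse (male-type) separate the 2 mice of each library, so sex and mouse cannot be told apart. In endothelium the members summed to 7430 CPM in the control female, 8450 CPM in the control male, 5118 CPM in the c-Maf KO female and 4211 CPM in the c-Maf KO male. Both c-Maf KO mice lay below both control mice. Without Ifitm2, Ifitm3 and Bst2 the sums were 2266, 3214, 1914 and 1372 CPM in the same order. For single members, both c-Maf KO mice were below both control mice in 20 of 36, beside 39.8% of 11662 genes. Both were above in 1, Isg20, beside 29.1%, and 15 overlapped.

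Between the females, 7 of 35 members were lower, beside 13.6% of all genes, and 4 higher, beside 11.7%. The median log2 ratio was -0.13. Between the males, 28 of 35 were lower, beside 23.2%, and 2 higher, beside 14.2%, with a median of -1.15. Ifi204, Ifit3, Ifitm1, Ifitm2, Iigp1, Irgm1 and Trim30a were lower between both. Ifi204 stood at 131 CPM in the control female, 192 in the control male, 47.2 in the c-Maf KO female and 26.6 in the c-Maf KO male. Ifitm2 stood at 2804, 2638, 1221 and 1110.1 CPM in that order, with log2 ratios of -1.20 between females and -1.25 between males. Both genes separated the genotypes without overlap, and Ifitm2 differed little within a genotype. Ifit3 was at 46.2 and 94.9 CPM in control and at 30.1 and 12.1 CPM in c-Maf KO mice, female first.

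**Figure D1:**
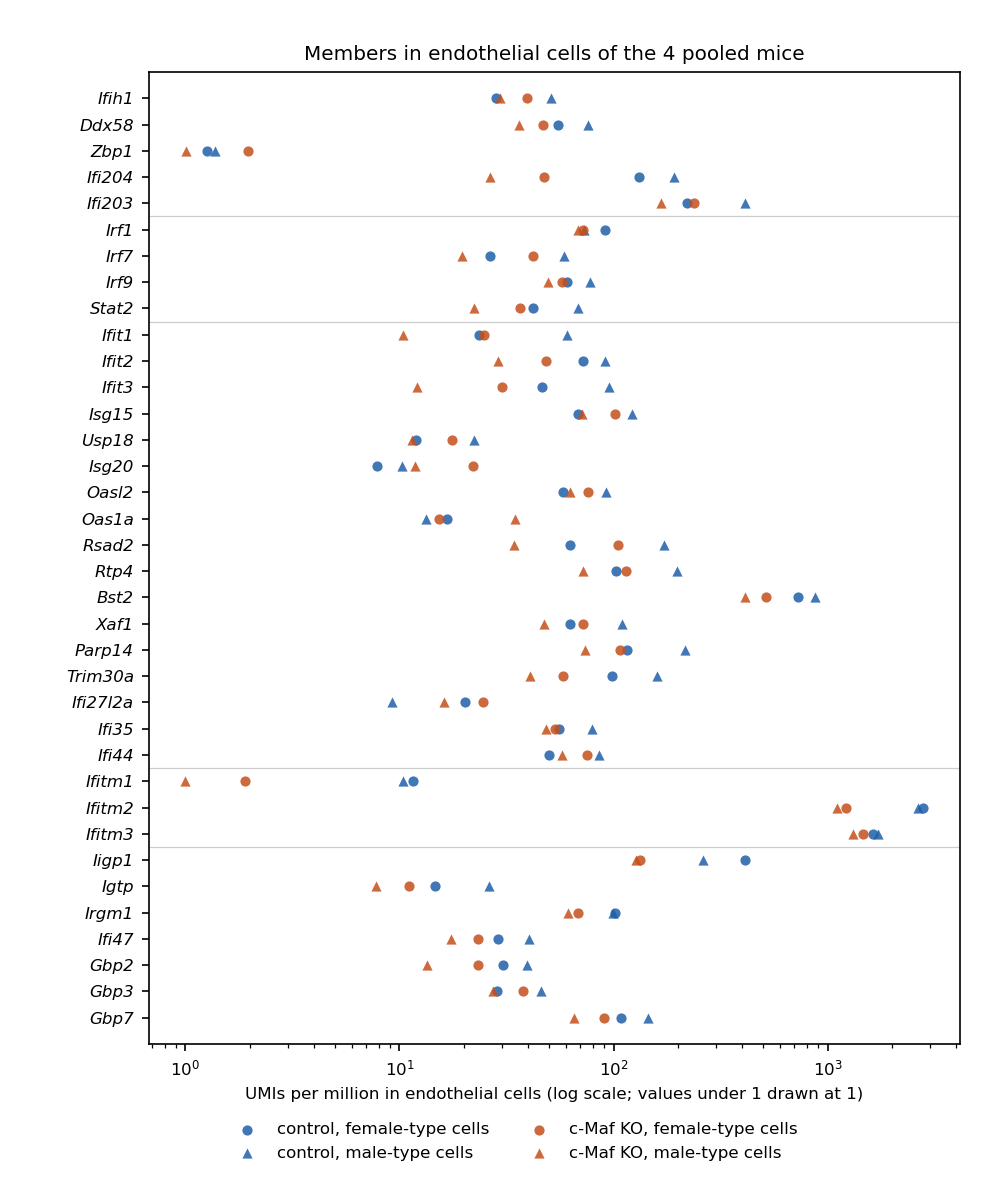
Level of each member (rows, grouped by role) in endothelial cells of the 4 pooled mice, in CPM on a log axis. Circles are female-type and triangles male-type cells, blue control and orange c-Maf KO. Ifi204, Ifitm2 and Iigp1 separate the genotypes, while for Rsad2 and Irf7 the control and c-Maf KO mice interleave.

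Other members had opposite differences in the females and the males. Rsad2 stood at 62.4 CPM in the control female, 172 in the control male, 105 in the c-Maf KO female and 34.3 in the c-Maf KO male. Its log2 ratio was 0.75 (0.60 to 0.92) between females and -2.32 (-2.64 to -2.03) between males. Irf7 stood at 26.6, 59.0, 41.9 and 19.5 CPM in the same order, with log2 ratios of 0.66 and -1.59. In both genes the control male was the highest mouse and the c-Maf KO male the lowest. Ifit1, called lower over all cells, was at 23.4, 60.5, 24.8 and 10.4 CPM, with a log2 ratio of 0.08 between females. Isg15 was at 68.1, 121, 102 and 70.9 CPM, a spread within each genotype larger than the difference of -0.02 over all cells. Isg20 was at 7.86, 10.3, 22.1 and 11.8 CPM.

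Mice of 1 genotype differed as well. In the control library 17 of 35 members were higher in male-type than in female-type endothelium, beside 3.42% of all genes, and 2 were lower, beside 5.54%. In the c-Maf KO library 13 of 34 were lower in male-type cells, beside 4.27%, and 1, Oas1a, was higher, beside 2.15%. The median log2 ratio of male-type over female-type cells was 0.55 in control and -0.50 in the c-Maf KO library. With 1 mouse of each sex per genotype, the spread between mice of 1 sex and genotype is not known.

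The c-Maf KO library also held cells in the clusters S and S2 that carry most control endothelium, and they had Maf transcripts. Among female-type cells Maf was at 2037 CPM in control S and S2, 1800.3 CPM in c-Maf KO S and S2 and 9.80 CPM in KOS_1 and KOS_3. Of the c-Maf KO cells in S and S2 with a known type, 247 were female-type and 0 male-type, so only the female was compared within the library. The clusters were drawn from expression in the same cells, so these values are a description. In KOS_1 and KOS_3 against S and S2 of this mouse, 4 of 34 members were lower, beside 12.6% of all genes, and 1 higher, beside 9.79%, so the count of members was no larger than the share of all genes.

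Ifi204 stood at 143 CPM in control S and S2, 143 in c-Maf KO S and S2 and 38.8 in KOS_1 and KOS_3, always female-type cells. Trim30a was at 104, 117 and 53.5 CPM, and Ifit2 at 79.2, 96.4 and 48.4 CPM. Ifitm2 was at 2945, 2072 and 1144 CPM, with the Maf-positive c-Maf KO cells between the others. These 4 were the members called lower in KOS_1 and KOS_3. Ifi44, a protein of unclear function that interferon induces, was the 1 called higher, at 51.8, 56.0 and 85.8 CPM.

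Within S and S2 themselves the libraries were compared as well. Against female-type control cells of the same clusters, 3 of 35 members were lower in c-Maf KO S and S2, beside 4.30% of all genes, and 5 higher, beside 3.90%. Iigp1 was at 444 CPM in control, 151 in c-Maf KO S and S2 and 140 in KOS_1 and KOS_3. Irgm1 was at 106, 68.1 and 71.3 CPM, and Ifitm1 at 11.6, 1.73 and 2.03 CPM, with only 3 UMIs in the middle value. Within the c-Maf KO female, KOS_1 and KOS_3 differed from S and S2 by a log2 ratio of -0.12 (-0.31 to 0.08) for Iigp1 and 0.06 (-0.21 to 0.36) for Irgm1. Rsad2 stood at 67.5, 132 and 117 CPM and was called higher in c-Maf KO S and S2 than in control (0.97, 0.73 to 1.21), as were Isg20, Ifih1, Usp18 and Ifi27l2a.

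**Figure D2:**
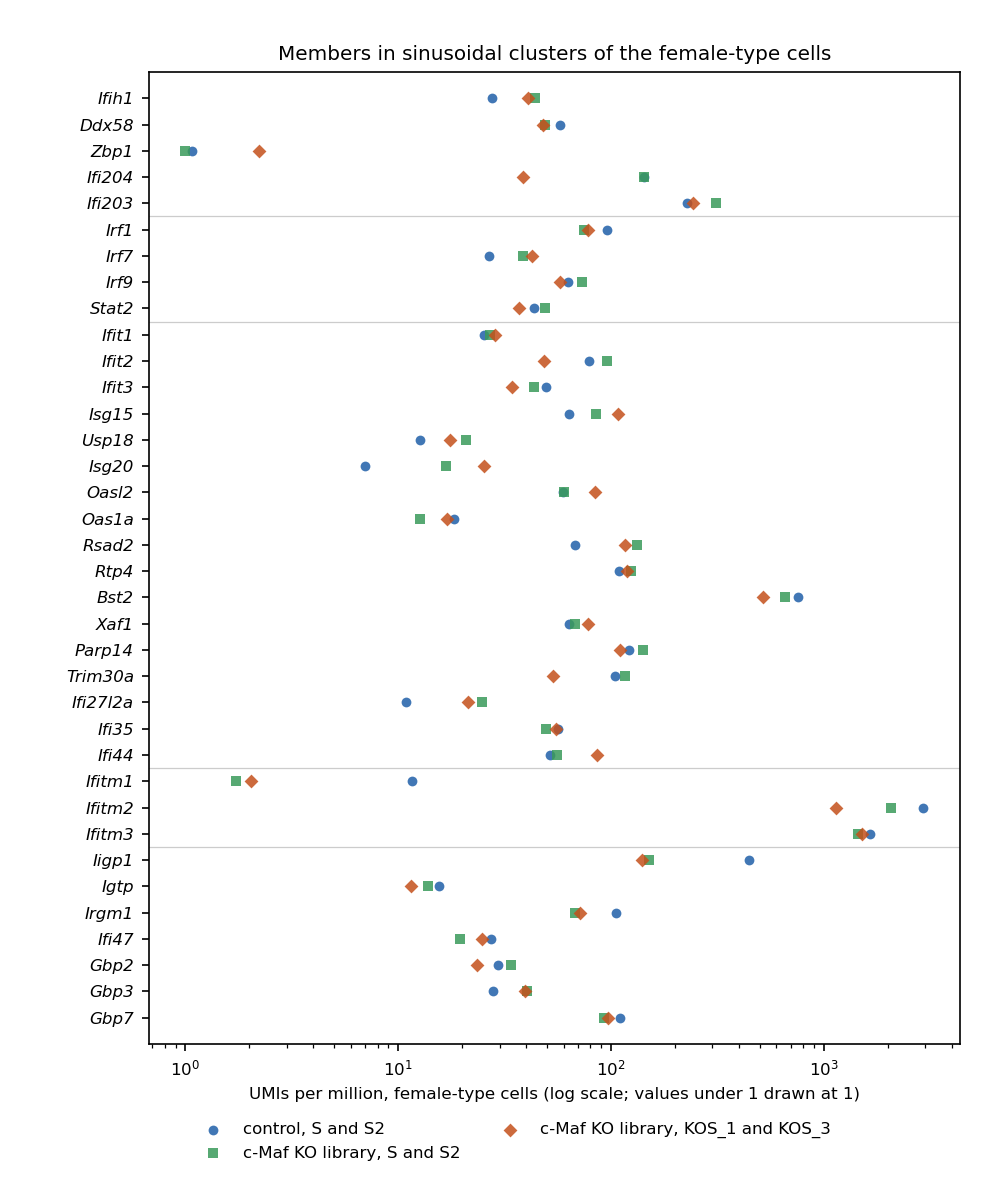
Level of each member in female-type sinusoidal cells, in CPM on a log axis: control S and S2 (blue circles), c-Maf KO S and S2 (green squares) and KOS_1 and KOS_3 (orange diamonds). The orange points of Ifi204 and Trim30a lie to the left of the others, and Iigp1 and Irgm1 have both c-Maf KO points to the left of control.

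By endothelial subtype, the sinusoidal clusters together had 14 of 36 members lower, beside 15.4% of all genes, and 2 higher, beside 13.4%. Cycling endothelium (C-EC) had 12 of 29 lower, beside 14.6%, and 0 higher, beside 5.70%. Large vessel cells (PV), with 56 and 135 cells, had 3 of 28 lower, beside 6.26%, and 1 higher, beside 6.08%. Their median was 0.06, against -0.47 in sinusoidal and -0.47 in cycling cells. In large vessel cells Iigp1 was at 207 and 192 CPM, Ifitm2 at 1419 and 1139 CPM and Trim30a at 55.3 and 68.9 CPM. Whether subtypes differ in their ratios was not tested.

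The effectors were unevenly spread over cells. In cells thinned to 1128 UMIs, the antiviral effectors other than Bst2 gave a mean of 1.30 UMIs in control and 0.944 in c-Maf KO endothelial cells, and 37.9% and 47.5% of cells had none. Cells with 3 or more such UMIs made up 23% of the control male, 9.74% of the control female, 11.7% of the c-Maf KO female and 5.92% of the c-Maf KO male.

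In Kupffer cells, whose c-Maf status the labels do not give, Maf was at 797 CPM in control and 529 in the c-Maf KO library. There 19 of 35 members were lower in c-Maf KO livers, beside 6.61% of 7756 genes, and 1 higher, beside 4.45%. The median log2 ratio was -0.67, against -0.04 over all genes. Iigp1 was at 124 and 48.9 CPM (-1.33, -1.82 to -0.90) and Ifit1 at 33.0 and 13 CPM (-1.29). Isg15 was at 139 and 59.8 CPM (-1.21, -1.65 to -0.81), and Ifit2 at 84.5 and 37.0 CPM (-1.17). Ifitm1 was higher, at 11.9 and 44.6 CPM (1.90, 1.23 to 2.58), and 26 of its 41 c-Maf KO UMIs came from 1 cell. Of the members lower in Kupffer cells, 12 were lower in endothelium too, which is 63.2% of the Kupffer and 75% of the endothelial calls. Over the 7471 genes tested in both types these shares were 50% and 20.7%. The 7 others were Ifih1, Isg15, Oas1a, Rsad2, Irf1, Gbp3 and Zbp1.

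Kupffer cells also held markers of other cells, which did not all move in the same direction. Endothelial markers summed to 1352 CPM in control and 823 CPM in c-Maf KO Kupffer cells, with 0 of 7 at 0, and sinusoidal markers to 1984 and 1071 CPM. Monocyte markers summed to 242 and 1225 CPM and neutrophil markers to 149 and 472 CPM. B lineage markers were at 883 and 1386 CPM, hepatocyte markers at 1016 and 1094 and T and NK markers at 222 and 215. Without Kupffer cells in which markers of another cell type held over 0.1% of UMIs, 199 and 49 cells were left. Of 27 members that reached 50 UMIs there, 2, Ifi204 and Ifit2, were lower and 0 higher, with a median of -0.22. The share of all genes called in these cells was not computed. Iigp1 stood at 88.6 and 86.0 CPM in these cells, and Isg15 at 130 and 103 CPM (-0.31, -1.16 to 0.41). In thinned cells 6 of the 26 members that reached 50 UMIs were lower and 0 higher, and with each cell weighted equally 11 and 0. The part of other cells' RNA and of the smaller number of UMIs in these counts was not tested.

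By mouse, both c-Maf KO mice were below both control mice in Kupffer cells for 16 of 35 members, beside 21.0% of 6601 genes, and above for 1, beside 11.2%. Isg15 was at 122 CPM in the control female, 145 in the control male, 51.3 in the c-Maf KO female and 35.2 in the c-Maf KO male. The c-Maf KO values rest on 50 female-type and 26 male-type cells.

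B lineage cells differed little. Of 31 members, 4 were higher in the c-Maf KO library, beside 7.54% of 9864 genes, and 3 lower, beside 3.77%, with a median log2 ratio of 0.08. The largest B lineage cluster was B3 in the control library, with 831 of 1799 cells, and B1 in c-Maf KO, with 1114 of 2682. Gbp2 was at 20.6 and 8.36 CPM (-1.30, -1.71 to -0.91), Gbp7 at 51.1 and 29.7 CPM (-0.78) and Gbp3 at 33.0 and 19.8 CPM (-0.74). By cluster, Gbp2 was at 30.8 and 20.1 CPM in B3, 5.09 and 4.36 in B2 and 2.998 and 1.54 in B1. Gbp7 was at 68.9 and 52.8, 24.1 and 16.7, and 7.99 and 4.01 CPM in the same order. Gbp3 was at 47.03 and 38.3, 20.8 and 18.5, and 4.997 and 12.02 CPM, so it was not lower in B1. The remaining B lineage cluster, CLP, held 55 control and 239 c-Maf KO cells. There Gbp2 was at 38.6 and 15.8 CPM, Gbp7 at 119 and 94.8 CPM and Gbp3 at 8.91 and 9.30 CPM. The part of the cluster mix in these lower calls was not tested. Higher over all B lineage cells were Oas1a at 1.39 and 4.56 CPM (1.67), Ifit2 at 3.27 and 6.40 CPM (0.95), Usp18 at 3.40 and 5.64 CPM (0.72) and Rtp4 at 8.44 and 13 CPM (0.62). The higher members were counted with 11 to 120 UMIs a library. Median-of-ratios scaling, and totals without abundant gene classes, each gave 2 higher and 3 lower.

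T and NK cells had 2 of 34 members lower, beside 3.13% of 9808 genes, and 1 higher, beside 2.45%, with a median of -0.07. Ifitm2 was at 115 and 54.2 CPM (-1.09, -1.29 to -0.90) and Ifit3 at 12 and 6.45 CPM (-0.88). By cluster, Ifitm2 was at 238 and 52.2 CPM in T-Gzm, 42.0 and 39.3 in T-Cd6 and 61.3 and 62.1 in T-Foxp3. Ifit3 was at 12.6 and 1.31, 16.1 and 14.8, and 6.63 and 5.62 CPM in the same order. Both differences thus lay mainly in T-Gzm. Over all T and NK cells Ifitm1 was at 8.66 and 13.5 CPM (0.64), and 24 of its 73 c-Maf KO UMIs came from 1 cell. Sinusoidal markers in these cells summed to 339 and 92.2 CPM, and their part in the Ifitm2 value was not tested.

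**Figure D3:**
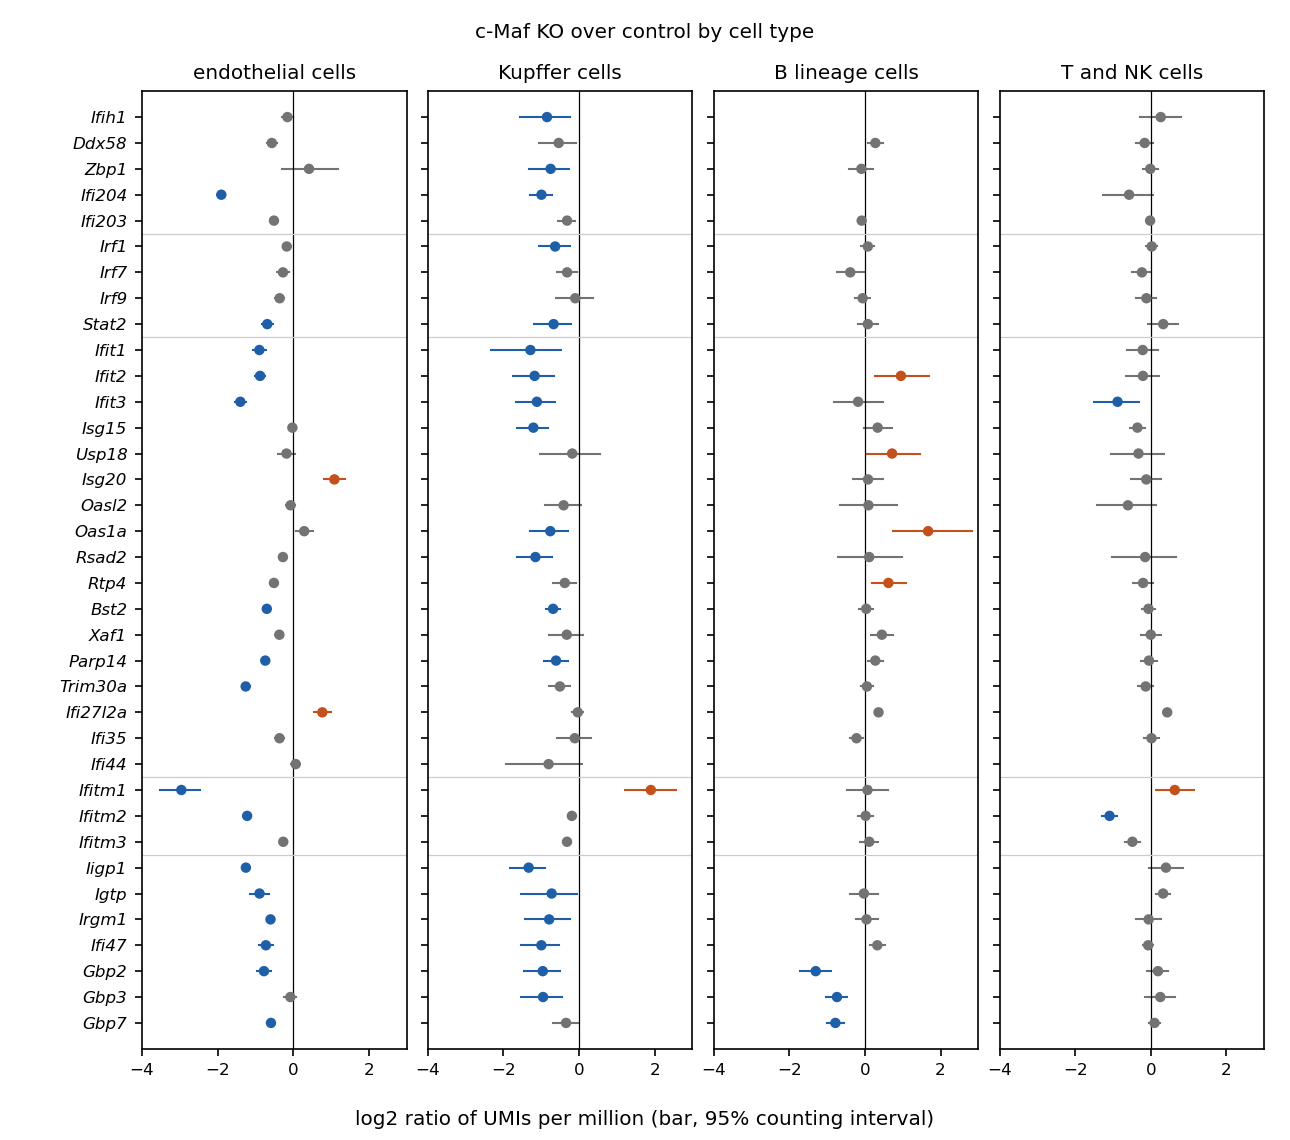
Log2 ratio (c-Maf KO to control) of each member in 4 cell types, with 95% counting intervals. Blue points were called lower, orange higher and grey neither, and members under 50 UMIs are left blank. The blue points are many in endothelial and Kupffer cells and few in lymphocytes.

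The ratio in endothelium was set against that of the other types by its difference on the log2 scale, with a counting interval. Against B lineage cells 16 of 31 members had a lower ratio in endothelium, beside 20.5% of 9275 genes, and 2 a higher, beside 11.7%. Ifitm1 differed by -3.03 (-3.75 to -2.30), Ifit2 by -1.83 (-2.50 to -1.16), Oas1a by -1.38 (-2.35 to -0.41) and Trim30a by -1.31 (-1.49 to -1.13). Against T and NK cells 13 of 34 were lower, beside 11.7% of 9281 genes, and 1 higher, beside 11.4%. Ifitm1 differed by -3.59 (-4.29 to -2.90), Iigp1 by -1.65 (-2.09 to -1.22), Ifi204 by -1.33 and Igtp by -1.22. Against Kupffer cells 4 of 35 were lower, beside 14.7% of 7471 genes, and 7 higher, beside 9.44%. The 4 were Ifitm1 (-4.86), Ifitm2 (-1.03), Ifi204 (-0.91) and Trim30a (-0.75). The largest differences in the other direction were Isg15 (1.19, 0.77 to 1.60), Zbp1 (1.17), Oas1a (1.05), Rsad2 (0.88) and Gbp3 (0.88). Isg20 had a higher ratio in endothelium than in B lineage (1.01) and T and NK cells (1.21).

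In the control library members summed to 7967 CPM in endothelial, 6823 in Kupffer, 1622 in B lineage and 2095 in T and NK cells. Without Ifitm2, Ifitm3 and Bst2 the sums were 2628, 3584, 1486 and 1804 CPM, with Kupffer cells above endothelium. Endothelium was higher than B lineage cells for 25 of 36 members, beside 43.2% of genes, and lower for 2, beside 21.1%. Against T and NK cells 22 were higher, beside 41.4%, and 6 lower, beside 21.8%. Against Kupffer cells 6 were higher, beside 34.5%, and 10 lower, beside 16.4%. Ifi44 was at 65.2 CPM in endothelium, 21.7 in Kupffer, 0.252 in B lineage and 1.27 in T and NK cells. Iigp1 was at 297, 124, 2.77 and 11.6 CPM, and Ifitm2 at 2814, 1050.02, 46.5 and 115 CPM in the same order. These 3 were highest in endothelium.

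Other members were low there. Zbp1 was at 1.54 CPM in endothelium, 68.5 in Kupffer, 20 in B lineage and 68.6 in T and NK cells. Ifi27l2a was at 14.8, 532, 530.3 and 356 CPM. Ifi47 was at 35.7 CPM in endothelium and 172 in T and NK cells, and Igtp at 19.3 and 64.4 CPM. Oas1a, at 15.6 and 72.6 CPM, and Irf7, at 44.1 and 201 CPM, were lower in endothelium than in Kupffer cells. In the c-Maf KO library the counts against Kupffer cells were 6 higher and 11 lower, beside 26.5% and 15%. Against B lineage cells they were 23 and 5, beside 39.2% and 21.4%, and against T and NK cells 20 and 7, beside 38.0% and 17.5%.

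Across deposited clusters of at least 50 cells in a library, the highest control level of 14 of 36 members was in an endothelial cluster. It was in Kupffer cells for 6, T and NK clusters for 5, a B lineage cluster for 1 and other hematopoietic clusters for 10. Shares of all genes were not computed for these groups of clusters, which differ in number. The counts are thus a description alone. S2 held the highest control level of Rsad2 (129 CPM), Ifit2 (90.5 CPM) and Parp14 (182 CPM), and PV that of Isg15 (177 CPM). Bst2 was highest in CMP, at 3059 CPM in control and 2951 CPM in the c-Maf KO library, against 829 CPM in control S2. Irf7 was highest there too, at 212 and 238 CPM. Ifitm1 was highest in neutrophils, at 916 and 895 CPM. In clusters of other hematopoietic cells the libraries lay close, as in neutrophils, with members at 4330 and 4275 CPM in sum, and CMP, with 5883 and 5669 CPM. Leukocytes_1 was at 5833 and 6344 CPM. The sinusoidal sums ran from 8232 CPM in control S2 to 3533 CPM in KOS_3. Parp14 and Stat2, called lower over all endothelium, were not lower in KOS_3. They stood there at 187 and 71.8 CPM, against 182 and 59.1 CPM in control S2. In KOS_1 they were at 95.5 and 31.8 CPM and in KOS_2 at 56.8 and 16.5 CPM.

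**Figure D4:**
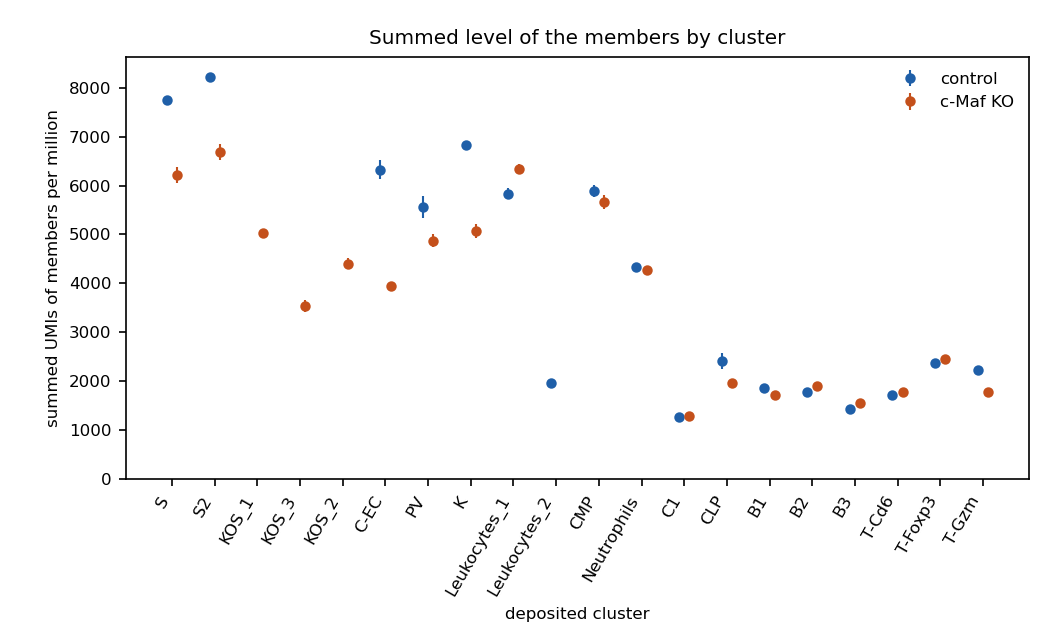
Summed level of the members in each deposited cluster with at least 50 cells in the library, in CPM, with 95% Poisson intervals that are mostly smaller than the points. Control S and S2 lie highest, the KOS clusters of the c-Maf KO library lie below them, and lymphocyte clusters lie near the bottom in both libraries.

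The rest of the pathway was read from lists set by knowledge of the pathway. Of 20 interferon genes, only Ifng gave more than 1 UMI: 829 in control and 641 in the c-Maf KO library, of which 788 and 595 were in T and NK cells. No Ifna gene and no Ifnb1 UMI was counted in either library, which allows up to 3 UMIs of each. Among 5 receptor genes that reached 50 UMIs in endothelium, 1 was lower, a share near the 15.5% of all genes. Il10rb, the chain shared by the interferon lambda and interleukin-10 receptors, was at 111 and 61.9 CPM (-0.84, -0.94 to -0.74). Ifnar1 was at 71.4 and 61.0 CPM (-0.23), Ifnar2 at 2411 and 2262 UMIs (-0.57), Ifngr1 at 82.6 and 59.9 CPM (-0.46) and Ifngr2 at 76.0 and 64.1 CPM (-0.24). Ifnlr1 gave 0 and 3 UMIs.

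Among the kinases and further STATs, Jak1, Jak2 and Stat3 were lower, beside 15.5% of all genes. Jak2, the kinase of the interferon gamma receptor, was at 53.9 and 28.8 CPM (-0.90), Stat3 at 122 and 75.6 CPM (-0.69) and Jak1 at 1021 and 637 CPM (-0.68). Tyk2 was neither, at -0.22. Of 5 inhibitors, 1, Pias1, was lower (-0.65), a share near the 15.5% of all genes. Socs1, Socs3, Ptpn2 and Ptpn6 were neither. Of 13 measured genes of nucleic acid sensing, 2 were lower, beside 15.5% of all genes, and 1 higher, beside 14.2%. Cgas, the cytosolic DNA sensor, was higher at 9.61 and 22.3 CPM (1.21, 0.95 to 1.48). Irf8 was lower at 124 and 63.8 CPM (-0.96) and Mavs, the adaptor of the RNA sensors, at 26.4 and 13.8 CPM (-0.93).

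Of 30 measured further induced genes outside the members, 11 were lower and 6 higher, beside the 15.5% and 14.2% of all genes, with a median of -0.34. Ifit3b, the near copy of Ifit3, was at 29.5 and 9.95 CPM (-1.57, -1.80 to -1.34), Trim34a at 37.9 and 18.1 CPM (-1.06) and the chemokine Cxcl10 at 153 and 75.4 CPM (-1.02). Higher were Ly6a, a surface antigen of stem cells and vessels, at 50.3 and 1876 CPM (5.22, 5.12 to 5.32), Ly6e at 164 and 506 CPM (1.62) and Slfn8 at 1.23 and 3.49 CPM (1.48). Of 14 measured antigen presentation genes, 4 were lower, beside 15.5% of all genes, and 0 higher, beside 14.2%: Tapbp (-0.91), H2-Eb1 (-0.82), H2-Aa (-0.79) and B2m (-0.59, from 1309 to 868 CPM).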

How the data were processed

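Single-cell RNA was captured from sorted liver cells with 10x Chromium. The deposited tables hold counts, UMIs per gene and cell, as the authors made them; per the submitters' processing notes, Cell Ranger 4.0.0, Seurat 3.2.3, FastQC 0.11.3 and the build mm10 were used, and no further settings are named in the sources used here. Cell types came from the authors' deposited annotation, which gives 15835 of the cells 1 of 23 clusters. Clusters D, H, Leukocytes_1, Leukocytes_2, CMP, Neutrophils and C1 entered none of the cell types compared. The libraries held 54143192 and 60281713 UMIs in 9038 and 9058 barcodes.

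Raw counts were summed per library and cell type and scaled to all UMIs of that sum. The 95% intervals are exact Poisson for levels, Clopper-Pearson for shares and conditional binomial for ratios, and cover counting error only. For ratios 0.5 UMI was added to each sum. A call needed 1.5-fold, an interval without equality and 50 UMIs over both sums. Thinning drew 1128 UMIs per cell and left out shallower cells, keeping 2585 and 2760 endothelial cells. Doublets were marked with Scrublet in scanpy (168 and 188 cells) and kept except in 1 alternative. The deposited percent of mitochondrial UMIs per cell, from the authors' table, served in the stricter cell filter alone. The calling rule was run on simulated counts that held counting error alone. They had no spread between cells or mice, so they cannot show how calls would hold across mice. Members, lists and rules were chosen with earlier results of these data known. The text names each member that passed in endothelium with the 6 other members of most UMIs, up to 4 per direction elsewhere by size, each receptor, up to 3 genes per direction of the other lists, and members called in opposite directions; further members were named after their values were seen. Alternatives were other scalings, filters, size rules, subsets of cells and mice. Software was Python 3.11.15, numpy 2.4.6, scipy 1.17.1, pandas 2.3.3 and scanpy 1.11.5. A gene of the list of kinases and STATs is not reported here.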

Additional observations from a re-analysis of the deposited data

Results flagged for a closer look

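Some members were called in opposite directions in different cell types of the same libraries. The log2 ratio of Ifit2 was -0.87 in endothelial and -1.17 in Kupffer cells but 0.95 in B lineage cells. Ifitm1 was at -2.96 in endothelial cells, 1.90 in Kupffer cells and 0.64 in T and NK cells, and in Kupffer cells 63.4% of its c-Maf KO UMIs lay in 1 cell. Oas1a was at -0.76 in Kupffer and 1.67 in B lineage cells. With 1 library per genotype these differences were not tested across animals.

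In endothelium the pooled mice also gave opposite directions. Rsad2 had a log2 ratio of 0.75 between female-type and -2.32 between male-type cells, and Irf7 one of 0.66 and -1.59. Each value compares 1 mouse with 1 mouse, and the difference was not tested.

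Barcodes without a deposited annotation, 1369 in control and 892 in the c-Maf KO library, entered no comparison. Their member transcripts summed to 4958 CPM in control and 3145 CPM in the c-Maf KO library, and their median depths were 1146 and 1992 UMIs.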

How the results depend on the processing

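No paired analysis was possible because each group had 1 library. Removal of cells with over 0.1% of UMIs from markers of other types, and all alternatives of the differences between cell types, were chosen after seeing the data. The values below are counts of members, lower and higher in the c-Maf KO library unless said otherwise, and the causes of the changes were not tested. For most alternatives the shares of all genes called were not computed. In endothelium (16 lower, 2 higher, median -0.51) the median was -0.43 with median-of-ratios scaling and -0.43 with cells weighted equally. Totals without abundant classes gave 10 lower and a median of -0.34, thinning 1 higher, and a 2-fold rule 6 lower and 1 higher. Female-type cells gave 7 lower, 4 higher and -0.13, and male-type cells 28 lower and -1.15. In Kupffer cells (19 and 1) thinning gave 6 and 0, equal weights 11 and 0, the 2-fold rule 6 lower and female-type cells 12 and 0. Male-type Kupffer cells gave 0 higher, and removal of marker-rich cells 2 and 0 with a median of -0.22. In B lineage cells (3 and 4) both other scalings gave 2 higher, thinning 1 and 0, equal weights 1 higher, removal of the 1% richest cells 2 higher, and the 2-fold rule 1 and 1. In T and NK cells (2 and 1) thinning gave 2 higher, equal weights 2 higher, removal of the 1% richest cells 1 and 0, and the 2-fold rule 1 and 0. There female-type cells gave 3 higher, male-type cells 6 and 0, and removal of marker-rich cells 1 and 2. Endothelium against Kupffer cells in control (6 higher) had 3 higher with median-of-ratios scaling, 3 when thinned and 3 under the 2-fold rule. In the c-Maf KO library (6 higher, 11 lower) these gave 3, 3 and 2, thinning 6 lower and marker removal 1 higher. Against B lineage cells in control (2 lower), median-of-ratios scaling gave 4 lower and thinning 1.

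For the difference in ratio against Kupffer cells (4 lower, 7 higher), thinning gave 2 higher, the 2-fold rule 2 and 3, male-type cells 9 and 3, and marker removal 3 higher. Against B lineage cells (16 and 2), totals without abundant classes gave 4 higher, thinning 7 and 0, the 2-fold rule 9 and 1, female-type cells 9 and 4, and male-type cells 0 higher. Against T and NK cells (13 and 1), totals without abundant classes gave 7 lower, thinning 7 and 0, equal weights 2 higher, the 2-fold rule 6 lower, female-type cells 8 and 4, and male-type cells 2 higher. Single members reversed in 4 cases: Ifit1 in female-type endothelium (0.079), Ifit1 (0.049) and Ifitm1 (-2.25) in Kupffer cells without marker-rich cells, both under the 50-UMI minimum with 15 and 4 and with 8 and 0 UMIs, and Ifitm1 in female-type T and NK cells (-1.41). The other 274 summary values stayed near the reported one. Few UMIs widen the intervals in large vessel cells (434148 in control), cycling endothelium (637591 in control) and c-Maf KO Kupffer cells (919852).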
